A study of Mus musculus with 5 samples.

Results

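The red blood cell genes described here were measured in mouse glioma and in normal mouse brain, and comprise the alpha-globin genes Hba-a1 and Hba-a2, the adult beta-globin genes Hbb-b1, Hbb-b2 and Hbb-bt, the haem enzyme gene Alas2 and the membrane transporter gene Slc4a1. They were chosen as probes whose RefSeq accession maps to these symbols, which gave 7 probes, 1 for each of the 7 genes, out of 55681 probes and 21145 named genes. RNA from 3 gliomas and from 2 normal brains was measured on single-colour Agilent arrays, 1 array a sample, and every sample was labelled as taken at postnatal day 150. The tumours are labelled MADM, for mosaic analysis with double markers, a mouse genetic method that leaves sparse marked cells homozygous for a mutation. For neither group do the labels give a mutated gene, Cre driver, strain, sex or brain region. Whether blood was washed out by perfusion, and whether each replicate was its own animal, is also not given there, and the p-values therefore speak only of differences between these 5 samples, which may be technical.

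Haemoglobin is a tetramer of alpha-type and beta-type globin chains that each hold a haem group and carry oxygen. Mature red cells have no nucleus, and the globin mRNA of blood is a remnant of transcription in their precursors in bone marrow and spleen. In brain tissue globin mRNA comes mainly with the blood in its vessels, and low globin expression has also been reported in neurons and glia. Alas2 is the erythroid form of the first enzyme of haem synthesis, and Slc4a1, or band 3, exchanges chloride for bicarbonate across the red cell membrane and anchors the membrane skeleton. Mouse strains carry either of 2 arrangements of the adult beta-globin locus, the pair Hbb-bs and Hbb-bt or the pair Hbb-b1 and Hbb-b2, whose transcripts are closely similar. Probe sequences were not used here, so how far the beta-globin probes, or the 2 alpha-globin probes, share signal was not tested.

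Upstream sequences of the members are shown because 6 of the 7 genes were lower together in glioma, and because Hba-a1 and Hba-a2 are near copies of each other. The RefSeq table of promoters (build GRCm38.p6) held 4 of the 7 members, and the 110 bases before each start site are printed 5′ to 3′ on the gene's own strand. Capitals mark every match, on either strand, to GATAA (the core of GATA factor sites), CACCC (bound by Krüppel-like factors), CCAAT or ATAAA (part of a TATA-like box); neighbouring or overlapping matches run together in capitals.
Hba-a1, chr11:32283562-32283671, plus strand: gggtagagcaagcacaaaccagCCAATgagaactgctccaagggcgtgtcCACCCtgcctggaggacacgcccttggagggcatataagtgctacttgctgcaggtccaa
Hba-a2, chr11:32296382-32296491, plus strand: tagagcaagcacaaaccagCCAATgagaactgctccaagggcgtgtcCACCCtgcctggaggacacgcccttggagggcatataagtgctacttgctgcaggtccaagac
Hbb-bt, chr7:103813924-103814033, minus strand: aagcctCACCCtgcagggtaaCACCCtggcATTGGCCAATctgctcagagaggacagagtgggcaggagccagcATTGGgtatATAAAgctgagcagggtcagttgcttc
Alas2, chrX:150547307-150547416, plus strand: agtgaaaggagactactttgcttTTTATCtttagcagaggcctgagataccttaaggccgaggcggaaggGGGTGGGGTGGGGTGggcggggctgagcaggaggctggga

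The alpha-globin windows shared an unbroken run of all but 3 of the 110 bases, and of all but 3 of the 250 bases upstream of the start site, whereas the longest run shared with Hbb-bt was 8 bases. In the whole 250 bases, Hba-a1, Hba-a2 and Hbb-bt each held 1 match to GATAA, starting at positions -182, -185 and -204 from the start site and so outside the printed windows. Alas2 held its 1 such match in reverse, at positions -86 to -82, where it overlaps a match to the last of the motifs. The motif CACCC occurred 2, 2, 3 and 3 times in Hba-a1, Hba-a2, Hbb-bt and Alas2, in the last as a tandem repeat in reverse. Of the 32851 promoter windows of this length in the table, 22.6% held the GATA motif, 52.0% held the second motif, 33.8% held the CCAAT box and 37.3% held the last, so single matches of such short words are common. They are a description of the letters, and no binding was measured.

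Levels below are log2 of the processed signal, which is the background-corrected brightness of a spot, relative to the 75th percentile of the same array, so that 0 is that percentile. They are given for glioma arrays 1, 2 and 3 and then for normal brain arrays 1 and 2. Changes are glioma minus normal brain on this scale, ± the standard error of the limma fit over all genes (n = 3 and n = 2), and adjusted p-values are Benjamini-Hochberg values over the 16887 genes tested. Between 61.45% and 70.3% of the spots on an array were well above background, and the count of saturated spots was 0 outside the controls. Among all genes tested, 8685 (51.4%) passed at an adjusted p under 0.05, of which 4691 (27.8%) were lower and 3994 (23.7%) higher in glioma, with a median change of -0.05, so a fall was common in this comparison. All arrays shared a slide and a scan, with gliomas in its first row and normal brain in its second, so position on the slide and group cannot be told apart. Without scaling between arrays the median of all genes was 0.31 and 63.8% of the calls were higher, against 46.0% here. Glioma 3 alone carried the transcripts of a female, with Xist at 0.01 against -7.61 to -7.03 on the other arrays and the Y-linked Ddx3y at -7.85 against 0.46 to 1.45, so values without it are given where they matter. The tissue labels were checked on Olig2, a factor of the oligodendrocyte lineage common in glioma, which stood at 4.04, 4.17 and 4.40 in the gliomas and at -0.21 and -0.36 in normal brain.

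Of the 7 genes, 6 fell in glioma, by 10.6-fold to 19.1-fold, beside the 27.8% of all genes called lower. All 7 were well above background on all 5 arrays, so each fold rests on measured signal in both groups. The members' median change was -3.89. A fall that passed the test and exceeded 3 on the log2 scale, a size looked at after the values were seen, was found in 697 genes, or 4.13% of those tested. Slc4a1 was the member that did not pass. The glioma levels lay below both normal brain levels in all 7 genes, as they did in 38.8% of all genes, while the gliomas lay above in 35.2%. In this bulk RNA, fewer red cells in the tissue, less RNA per red cell and less globin RNA from brain cells cannot be told apart.

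**Figure D1:**
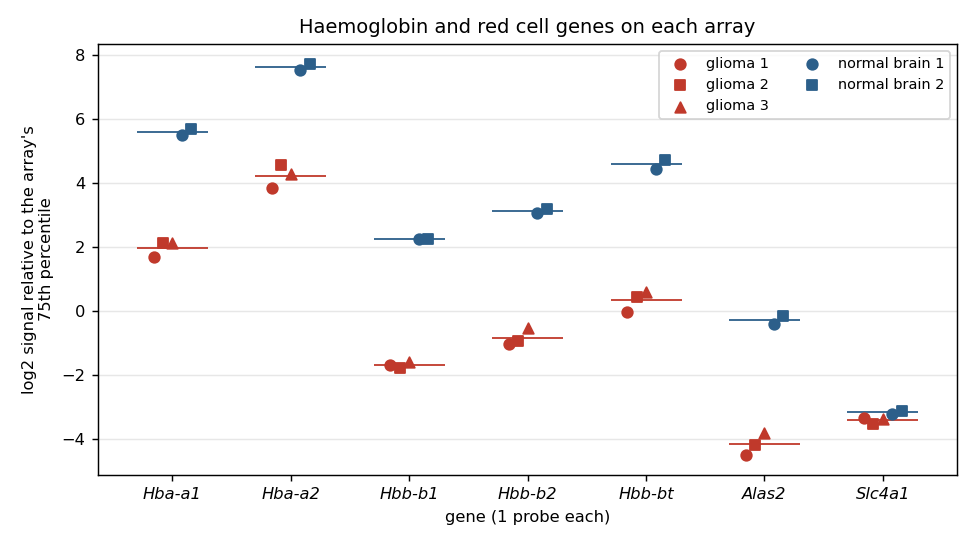
Log2 signal of the 7 genes on each array, relative to the array's 75th percentile (vertical axis), with a point for each array and a line at each group's mean. The glioma points (red) lie far below the normal brain points (blue) in 6 genes, with changes of -4.26 to -3.41 between the means, whereas in Slc4a1 the change is -0.25.

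The alpha-globin genes fell by 10.6-fold and 12.3-fold. Hba-a2 had processed signals of 12795, 24562 and 16821 in the gliomas and of 133337 and 157000 in normal brain, before any scaling. On the scaled log2 level it stood at 3.82, 4.54 and 4.28 against 7.53 and 7.72. The lowest normal brain array was thus well above the highest glioma, glioma 2. The change was -3.41 ± 0.25, or 10.6-fold lower (limma adjusted p = 0.000632, 95% confidence interval -4.05 to -2.77). Hba-a1 stood at log2 levels of 1.66, 2.11 and 2.11 against 5.48 and 5.67. Its change was -3.61 ± 0.20, or 12.3-fold lower (limma adjusted p = 0.00041, interval -4.13 to -3.10). In both alpha-globin genes glioma 1 was the lowest array and the groups were far apart.

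The beta-globin genes fell by 15.3-fold to 19.1-fold. Hbb-bt, an adult beta chain of the arrangement that C57BL/6 mice carry, stood at log2 levels of -0.04, 0.42 and 0.58 in the gliomas and of 4.44 and 4.71 in normal brain. Its change of -4.26 ± 0.24, 19.1-fold lower, was the largest of the 7 (limma adjusted p = 0.00041, interval -4.86 to -3.65). Hbb-b2, the minor chain of the other arrangement, stood at -1.06, -0.94 and -0.55 against 3.05 and 3.18. It fell by 3.97 ± 0.20, 15.6-fold (limma adjusted p = 0.000398). Hbb-b1, the major chain of that arrangement, had the closest replicates of the 5 haemoglobin genes, with log2 levels of -1.69, -1.78 and -1.62 against 2.23 and 2.25. It fell by 3.93 ± 0.13, 15.3-fold (limma adjusted p = 0.000329). Its glioma arrays spanned 0.16, where the median gene spanned 0.50. The labels name no strain, so which of these chains the animals carried is not known, and all 3 probes gave signal well above background on every array.

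Alas2, whose enzyme commits the red cell precursor to haem synthesis, stood at log2 levels of -4.52, -4.21 and -3.82 in the gliomas and of -0.41 and -0.18 in normal brain. These levels correspond to processed signals of 39.5, 56.9 and 61.4 against 545.5 and 656.3. The change was -3.89 ± 0.25, 14.8-fold lower (limma adjusted p = 0.00051, interval -4.52 to -3.26). With normexp background correction, which adds an offset and shrinks changes of dim probes, it was -2.84 (adjusted p = 0.000162). Alas2 lies on the X chromosome, and glioma 3, the female one, had the highest of the 3 glioma levels. The part of sex in this level was not tested. Without glioma 3 the change was -4.07 (limma adjusted p = 0.00176).

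Slc4a1 stood at log2 levels of -3.37, -3.53 and -3.40 in the gliomas and of -3.22 and -3.15 in normal brain. The change was -0.25 ± 0.14, 1.19-fold lower, and did not pass (limma adjusted p = 0.179, interval -0.59 to 0.10). The interval leaves out a fall as large as those of the other 6 genes. Processed signals before scaling overlapped, at 87.6, 91.6 and 82.0 in the gliomas and 77.6 and 84.0 in normal brain. Its direction depended on the scaling, since in the authors' unscaled value table the change was 0.11 (adjusted p = 0.595).

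**Figure D2:**
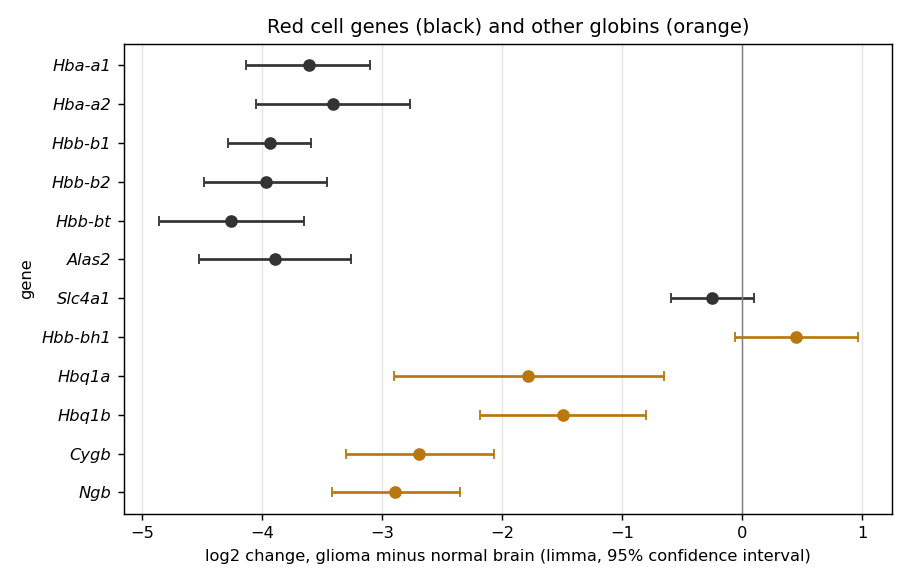
Log2 change from normal brain to glioma with its 95% confidence interval from limma (horizontal axis) for the 7 red cell genes (black) and the 5 other globin genes tested (orange). The 5 haemoglobin genes and Alas2 lie between -4.26 and -3.41, and the intervals of Slc4a1 and Hbb-bh1 include 0.

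Within the groups the arrays took a similar order in most members. Normal brain 2 was above normal brain 1 in all 7 genes, by 0.02 in Hbb-b1 to 0.27 in Hbb-bt, where the median gene differed by 0.10 between these arrays. Glioma 1 was the lowest glioma in 5 of the 7 genes and glioma 3 the highest in 5. The glioma arrays spanned 0.72 in Hba-a2 and 0.70 in Alas2, against 0.15 in Slc4a1. These differences within a group are small beside the changes of -4.26 to -3.41 between groups.

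Ratios of 2 probes on the same array, which scaling an array by a constant factor cannot move, compared how far the members fell. Quantile normalization and normexp can move them. An exact two-sided permutation test of each of the 21 pairs, over the 10 ways to split 5 arrays, cannot go below p = 0.1. No pair can therefore pass, and the differences are given as values. The smallest adjusted p-value that this test gave over the pairs was 0.233. The log2 ratio of Hba-a1 to Hbb-bt was 1.71, 1.69 and 1.54 in the gliomas and 1.05 and 0.96 in normal brain. Hbb-bt was thus lower by a further 0.64 ± 0.08 (SE) than Hba-a1, with the groups apart. In the 6 pairs of an alpha with a beta gene the mean change of the alpha gene was the smaller, by 0.84 ± 0.16 in Hba-a2 with Hbb-bt down to 0.32 ± 0.21 in Hba-a1 with Hbb-b1. In the last pair the groups overlapped, at ratios of 3.36, 3.89 and 3.73 in the gliomas and 3.26 and 3.42 in normal brain, and in the other 5 they did not. These pairs share probes and are not independent. With normexp the changes were -3.54 in Hba-a1 and -3.38 in Hba-a2. Those of Hbb-b1, Hbb-b2 and Hbb-bt were then -3.6, -3.74 and -4.09, so the differences between alpha and beta genes were smaller. Hbb-b2 and Alas2 kept nearly the same ratio, at 3.46, 3.28 and 3.27 in the gliomas and 3.46 and 3.36 in normal brain, a difference of -0.08 ± 0.09. With normexp the 2 genes fell by different amounts, with changes of -3.74 in Hbb-b2 and -2.84 in Alas2. The ratio of Hbb-b1 to Slc4a1, in contrast, was 1.68, 1.74 and 1.78 in the gliomas and 5.45 and 5.39 in normal brain.

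**Figure D3:**
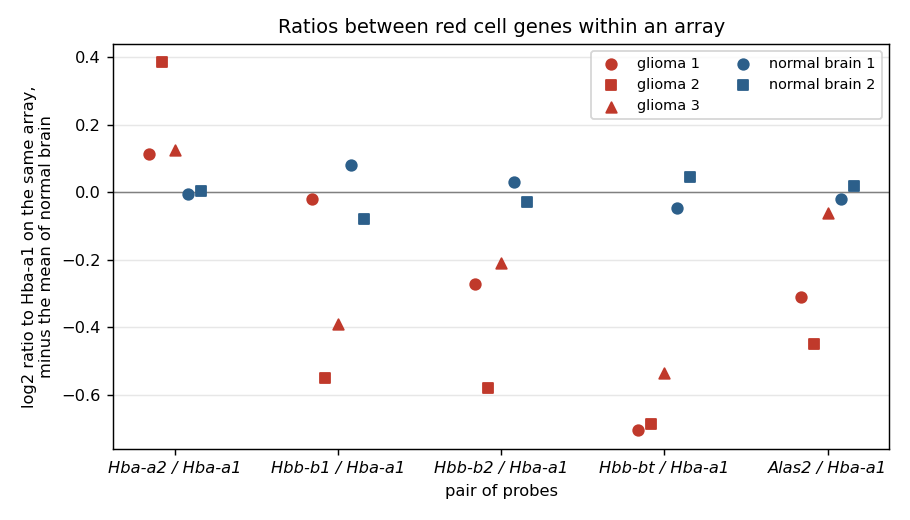
Log2 ratio of 5 red cell genes to Hba-a1 on the same array, minus the mean of the normal brain arrays (vertical axis), with a point for each array. The glioma points of Hbb-bt (red) lie farthest below 0, by a mean of 0.64, and those of Hba-a2 lie above 0, by a mean of 0.20.

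Globins outside the set differed by type. Of 11 listed, 9 were on the array by name and 5 were tested: 4 fell, none rose, and the median change was -1.78. Of all genes tested, 27.8% were called lower and 23.7% higher. Hbb-bh0 and the adult beta-globin gene Hbb-bs, which is paired with Hbb-bt, had no probe by name. The brain globin Ngb (neuroglobin) fell by 2.89 ± 0.21 (-2.29 with normexp) and the widely expressed Cygb (cytoglobin) fell by 2.69 ± 0.24. The theta-type globins Hbq1a and Hbq1b fell by 1.78 and 1.49, dim probes detected in 1 and 2 of the 3 gliomas. With normexp these were -0.78 and -0.75. Hbq1a did not pass without glioma 1 (adjusted p = 0.0568) or without either normal brain array (0.0999 and 0.1), nor Hbq1b without either of those (0.0506 and 0.0588), which left 2 of these globins called. The embryonic beta-type gene Hbb-bh1 stood at -3.80, -3.84 and -3.44 in the gliomas and at -4.29 and -3.99 in normal brain and did not pass (0.45 ± 0.20, limma adjusted p = 0.113). It passed as higher in the authors' unscaled table (0.81, adjusted p = 0.0193) and changed sign with normexp (-0.03, adjusted p = 0.869). The embryonic genes Hbb-y and Hba-x were not well above background on any array.

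Alas1, the housekeeping form of the enzyme encoded by Alas2, fell by 0.81 ± 0.15, beside the change of -3.89 in Alas2. Of 14 genes of haem synthesis, all detected on every array, 5 fell and 1 rose, with a median of -0.36. Of all genes, 27.8% were lower and 23.7% higher. Uros, which forms uroporphyrinogen III, fell by 1.64 ± 0.25. Cpox, a mitochondrial oxidase of the pathway, fell by 1.05, the mitochondrial transporter gene Abcb10 by 0.93 and Fech, which inserts iron into the ring, by 0.90. Slc25a39, a carrier of the inner mitochondrial membrane, rose by 0.70. Without either normal brain array 1 gene was called lower and none higher, with adjusted p-values of 0.0585 and 0.0673 for Cpox. Abcb10 and Fech also missed the threshold in the authors' unscaled table (adjusted p = 0.0568 and 0.0876).

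Other genes of the red cell membrane moved in both directions. Of 20 listed, 15 were tested: 8 fell and 4 rose, with a median of -0.87, beside 27.8% and 23.7% of all genes. Some defining red cell genes of the list were not well above background on any array. Among these were the Rh-associated glycoprotein gene Rhag, the protein 4.2 gene Epb42 and the blood group gene Kel. The membrane skeleton genes Sptb and Ank1 were detected on every array and called lower. Their changes were -1.95 ± 0.34 and -1.07 ± 0.23 (limma adjusted p = 0.0077 and 0.0152). Aqp1, a water channel of red cells and of the choroid plexus, fell by 4.85 ± 0.30 (-3.84 with normexp). Dmtn (dematin), which brain also expresses, fell by 3.23 ± 0.29 and the actin-capping gene Tmod1 by 2.15 ± 0.20. Icam4 fell by 2.78 ± 0.62 with its probe detected in 1 of 3 gliomas (-1.23 with normexp), and did not pass without glioma 3 (adjusted p = 0.0502) or without either normal brain array (0.0804 and 0.0706). The potassium channel gene Kcnn4 rose by 2.46 ± 0.33 (1.11 with normexp) and the protein 4.1 gene Epb41 by 1.92 ± 0.14. Without normal brain 1 or 2, 4 or 5 genes were called lower.

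Erythroid control genes were mixed. Of 12 transcription factors 10 were tested, with 3 lower, 2 higher and a median of -0.07. These counts stand beside 27.8% of all genes lower and 23.7% higher, and are near those shares. The 2 higher include Klf1, which entered the test through its glioma signal alone. Gata1, the master factor of the red cell lineage, did not reach the detection flag on any array. Tal1, a partner of Gata1 that is also active in some neurons and vessels, stood at 2.83, 2.02 and 2.79 in the gliomas and at -2.53 and -2.42 in normal brain, a rise of 5.03 ± 0.29 (limma adjusted p = 0.000446). The globin switching factors Bcl11a and Zbtb7a fell by 2.92 ± 0.30 and 1.56 ± 0.23. Bcl11a stood at 3.66 and 3.90 in normal brain, and which cells carried it was not tested. Zfpm1, a cofactor of Gata1, fell by 0.65 ± 0.20 and lost the call under several settings, with adjusted p-values of 0.0782 without glioma 1, 0.1 without glioma 2, 0.188 without either normal brain array, 0.0649 with quantile normalization and 0.251 in the authors' unscaled table. Klf1, the activator of adult beta-globin, was not well above background in normal brain, and its gliomas were at least 2.07-fold higher. The bound uses, on each normal brain array, the lowest signal well above background or Klf1's own signal, whichever was the higher, and is approximate. Without glioma 1 the bound was 1.79-fold. With normexp Klf1 changed by 0.14 and did not pass (adjusted p = 0.469). It also did not pass without normal brain 1 or 2, where its change was 1.32 or 1.38.

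Further genes of maturing red cells were mixed as well. Of 18 listed, 15 were tested: 5 fell and 3 rose, with a median of -0.35. These counts are likewise near the 27.8% of all genes lower and 23.7% higher. The 3 rises include Trim10 and Pklr, which entered the test through their glioma signal alone. Car2, a carbonic anhydrase of red cells and of oligodendrocytes, fell by 3.15 ± 0.54 and Fam210b by 2.12 ± 0.16. The erythropoietin receptor gene Epor fell by 2.07 ± 0.47 and missed the threshold without glioma 2 (adjusted p = 0.0581) and without either normal brain array (0.0773 and 0.087). Car1, an abundant carbonic anhydrase of red cells, stood at -4.26, -4.47 and -4.27 against -4.11 and -4.47 and did not pass (-0.04 ± 0.17). Trim10 was not well above background in normal brain, and its gliomas were at least 7.27-fold higher. For Pklr, the red cell pyruvate kinase gene and likewise dim in normal brain, this bound was at least 2.76-fold. With 1 glioma left out in turn, the bounds of Trim10 and Pklr were lowest without glioma 3, at 5.26-fold and 2.42-fold. With normexp both genes changed by 1.30 and 0.21, and Pklr did not pass (adjusted p = 0.264).

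Of 18 tested genes that clear haemoglobin and handle its iron, 6 rose and 3 fell, with a median of 0.10, beside 23.7% and 27.8% of all genes. Hmox1, the inducible enzyme that breaks down haem, stood at 1.65, 1.54 and 1.41 in the gliomas and at -0.20 and -0.28 in normal brain, a rise of 1.78 ± 0.14 (limma adjusted p = 0.000772), or of 1.11 with the mean of its detected probes. Cp (ceruloplasmin) rose by 1.91 ± 0.19 (2.53 with that mean) and the iron-sensing aconitase gene Aco1 by 1.73 ± 0.19. The iron hormone gene Hamp, not well above background in normal brain, was at least 6.43-fold higher, with glioma 1 the highest at -1.64 and glioma 2 at -3.48. Without glioma 1 this bound was 3.96-fold. Hamp is among the 6 rises counted, and entered the test through its glioma signal alone. It missed the threshold with normexp (1.28, adjusted p = 0.0624) and without normal brain 1 (0.056). The ferritin heavy chain gene Fth1 fell by 1.31 ± 0.23 and the haptoglobin gene Hp by 1.27 ± 0.38 (-0.74 with normexp). Neither passed without normal brain 1 (adjusted p = 0.0561 and 0.134) or 2 (0.0566 and 0.163), and Hp also not without glioma 3 (0.0708) or in the authors' unscaled table (0.127), so that no gene of this list was called lower without either normal brain array, and 3 were called higher without the first.

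**Figure D4:**
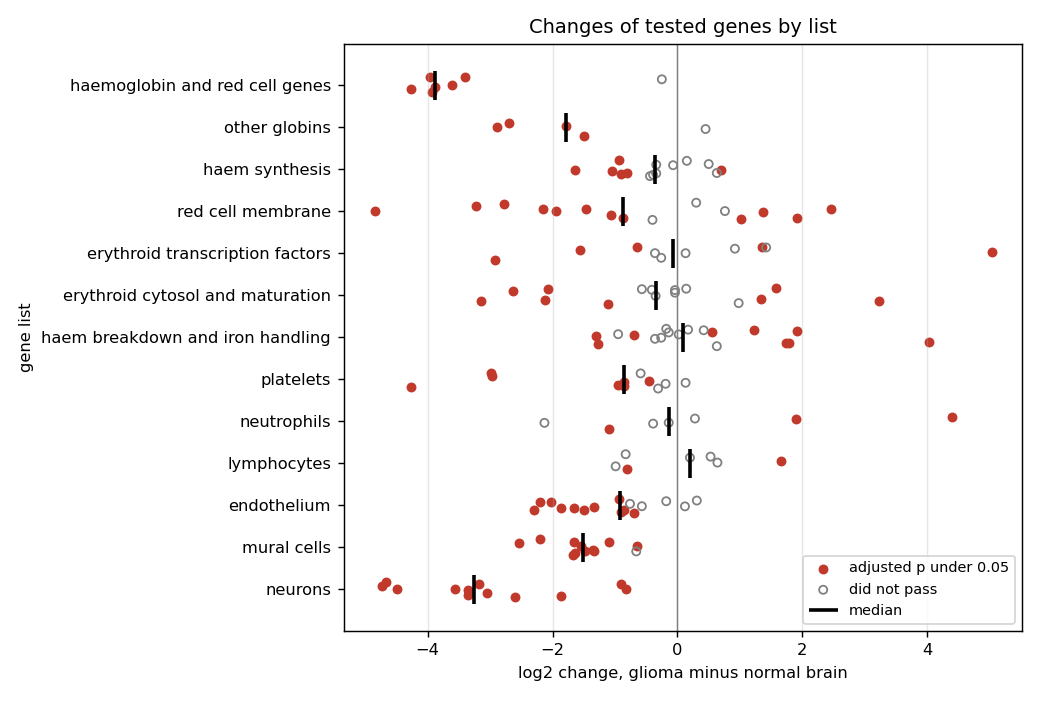
Log2 change from normal brain to glioma (horizontal axis) of every tested gene of the 13 lists, with calls filled, other genes open and each list's median as a black bar. The red cell set has its median at -3.89 and the neuron list at -3.27, and the lists of haem synthesis, erythroid factors and iron handling spread on both sides of 0.

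Markers of other cells that travel with blood or line its vessels moved too, and their part in the fall of the red cell genes was not tested. Of 14 platelet genes 11 were tested, of which 7 fell and 4 did not pass (median -0.85), beside 27.8% of all genes called lower. The platelet factor gene Pf4 stood at -4.13, -3.34 and -3.51 in the gliomas and at -0.53 and -0.82 in normal brain, a change of -2.98 ± 0.28 (-2.30 with normexp). The chemokine gene Ppbp, not well above background in any glioma, entered the test through its normal brain signal alone. It was at least 6.76-fold lower, a bound of 4.66-fold without normal brain 1 and 9.79-fold without normal brain 2. The glycoprotein gene Gp9, detected in 1 glioma, fell by 2.97 ± 0.35. With normexp the changes of Ppbp and Gp9 were -1.38 and -1.29. Treml1 fell by 0.96 ± 0.22 and missed the threshold without glioma 2 (adjusted p = 0.051) or either normal brain array (0.129 and 0.0645). The summed signal of the tested platelet genes, in units of the array's 75th percentile, was 0.828 to 1.04 in the gliomas and 2.03 to 2.37 in normal brain, and Gp1ba, Gp6 and F2rl2 were not well above background on any array. In the authors' unscaled table, and without either normal brain array, 3 of the 7 falls were called.

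Genes of the vessel wall mostly fell. Of 16 endothelial genes 11 fell and 5 did not pass (median -0.92), and all were detected on every array. Beside this list and the mural list below, the share of all genes called lower was 27.8%. Flt1, Slco1c1, Tek and Emcn fell by 2.29, 2.20, 2.03 and 1.87, whereas Kdr (0.31 ± 0.35, with probes of opposite direction) and Vwf (-0.18 ± 0.31) did not pass. With normexp Tek changed by -1.39. Of 12 genes of pericytes and smooth muscle 11 fell, with a median of -1.51, among them Myh11 by 2.53 (-1.45 with normexp), Vtn by 2.20, Rgs5 by 1.68 and Tagln by 1.65. The summed signal was 36.6 to 41.1 in the gliomas and 79.8 to 81.6 in normal brain for the endothelial list, and 8.08 to 10.2 against 26.1 to 27.9 for the mural list. The same sum over the 7 red cell genes, in which the brightest probes weigh most, was 19.2 to 29.9 against 265 to 303. Without either normal brain array 7 endothelial falls were called, and without the second 7 mural ones.

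Each of the 12 neuronal genes fell (median -3.27), beside 27.8% of all genes called lower. The part of the neuronal genes in the result was likewise not tested. The neurofilament subunits Nefm, Nefl and Nefh changed by -4.73, -4.67 and -4.49 and Stmn2, a regulator of microtubules in growing axons, by -3.57. The summed signal of the 12 genes was 78.7 to 103 in the gliomas and 602 to 606 in normal brain. Among the 10 genes whose profile over the 5 arrays lay closest to the mean of the 5 haemoglobin genes were Scn4b, Scube1, Crhr1, Syndig1l, Kcnip2, Inpp5j, Gli1 and Nr2f2. Likeness was the root mean square distance of centred log2 levels among 14848 genes detected on all arrays, and ran from 0.06 for Scn4b to 0.21 for Nr2f2. On this measure Alas2 lay at 0.11 and Slc4a1 at 1.77. With 5 arrays the measure follows mostly the difference between the groups, and it is a description with no test.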

How the data were processed

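Total RNA of 3 gliomas and 2 normal brains was measured on 1 array each. Per the file headers, the authors' intensity values come from Agilent Feature Extraction (version 10.7.3.1 per the submitters' processing notes), which removes a spatially fitted background; scaling between arrays is not recorded there. The authors' deposited value table holds log2 values, which were checked to equal log2 of the processed signal (correlation of 1 and median difference of 0 on each array).

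Control spots and 23 probes with outlier flags were left out, repeated spots averaged, and the log2 signal was taken relative to each array's 75th percentile. Probes were named through RefSeq accessions (28013 of 55681). Each gene was represented by its brightest probe, and the 16887 genes whose probe passed the well-above-background flag on 2 or more arrays entered limma 3.58.1 (R 4.3.3; lmFit, then eBayes). Tests were two-sided, with a threshold of 0.05 on Benjamini-Hochberg p-values. The fit was tested on simulated data. Figures were drawn with matplotlib 3.10.9 (Python 3.11.15), and tables were read with version 1.17.8 of data.table. Called genes were counted in 12 further lists, and up to 4 called genes in a list's main direction and 2 in the other were named; some that this would name are not reported here. Genes that did not pass or were not detected, and Hbb-bh1, Alas1, Sptb, Ank1, Car1, Kdr and Vwf, were named after their values were seen. The members and lists were chosen with earlier results of these data known. The alternatives were other normalizations, background correction, filters and probe choices, an intensity trend, a replicate block and leaving out each array. The files used here hold no mean spot signal, so normexp was run on the median signal, and bounds were recomputed with arrays left out, both alternatives chosen after seeing the data.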

Additional observations from a re-analysis of the deposited data

How the results depend on the processing

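The falls of the 5 haemoglobin genes and Alas2 passed in each of the 14 alternatives run, with adjusted p-values of at most 0.00908. Their log2 changes ranged from -4.39 (lowest of Hbb-bt) to -2.84 (Alas2 with normexp), and 6 of the 7 members were called lower every time. Slc4a1 passed in none of the 14 and turned to 0.11 without scaling between arrays. Hbb-bh1 turned to -0.03 with normexp. Over all genes, the 8685 calls became 4629 to 9323 when an array was left out, with 4629 and 4648 without normal brain replicates 1 and 2, where the lone normal sample is assumed to vary like the gliomas. With the replicate number as a block the calls numbered 8261, and 6 members stayed called. The labels do not say that these numbers pair samples, and deviations of same-numbered samples correlated at 0.01 and 0.05 over genes.

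Of the 53 other genes named by rule, 19 lost their call in at least 1 alternative and 18 of these without a normal brain array. Counts in the lists moved by over 1.5 times most often there, 12 counts without either. Without scaling, falls went from 5 to 2 in haem synthesis, from 3 to 1 in iron handling, from 7 to 3 in platelets and from 1 to 0 in lymphocytes, and rises from 0 to 1 in other globins and from 1 to 2 in lymphocytes. With detection required on all 5 arrays, falls of other globins went from 4 to 2. With the block, rises in haem synthesis and in lymphocytes went from 1 to 2, and without glioma 3 those in haem synthesis did too. Neutrophil rises went from 2 to 1 with normexp, with detection on all 5 arrays, and without glioma 3 or either normal brain array. Neutrophil falls went from 1 to 2 with no filter or without glioma 2, and to 0 without normal brain 2. Lymphocyte rises went from 1 to 2 with no filter and to 0 without glioma 2 or either normal brain array, and falls from 1 to 2 without glioma 3 and to 0 without normal brain 1. The cause was not tested. Normexp on the mean signal was not run. Alas2 and Slc4a1 had signals of at most 91.6 in glioma, where the background correction limits precision.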

Other observations

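White blood cell markers could be tested only in part. Of 15 neutrophil genes 7 were tested, with 1 lower, 2 higher and a median of -0.14, beside 27.8% of all genes lower and 23.7% higher. The alarmin gene S100a9 stood at -7.28, -2.93 and -6.02 in the gliomas and at -3.54 and -3.02 in normal brain, with glioma 2 alone near the normal level, and was detected in 1 of 3 gliomas and did not pass (-2.13 ± 1.29, limma adjusted p = 0.222). Camp fell by 1.09 ± 0.17, and not beyond the threshold without normal brain 2 (adjusted p = 0.0554), and Lcn2, which glia also make, rose by 1.89 ± 0.23. The granule enzyme gene Mpo, not well above background in normal brain, stood at 0.45, -3.11 and -1.68 in the gliomas and was at least 17-fold higher. Without glioma 1 the bound was 8.82-fold, and without glioma 2 it was 30.3-fold. This gene is among the 2 higher, and entered the test through its glioma signal alone. Mpo missed the threshold with normexp (change 2.19, adjusted p = 0.0672), without glioma 3 (0.0504) and without either normal brain array (0.0796 and 0.0856). The defining neutrophil genes Ngp, Ltf, Retnlg and Mmp8 lacked a well-above-background flag throughout. Among lymphocyte genes, 7 of 12 were tested, with 1 lower, 1 higher and a median of 0.20, beside the same shares of all genes. The B cell receptor gene Cd79b rose by 1.66 ± 0.45 (0.71 with normexp) and Ltb fell by 0.81 ± 0.20, and neither passed without either normal brain array (adjusted p = 0.149 and 0.079 for Cd79b, 0.081 and 0.168 for Ltb). Cd79b also missed it without glioma 2 (0.0855) or 3 (0.0611), and Ltb with the replicate block (0.0557) and in the authors' unscaled table (0.087).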
